A study of Mus musculus with 12 samples.

Results

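N6-methyladenosine (m6A) is a methyl mark on adenosines of mRNA. Writers deposit it in the nucleus: METTL3 is the catalytic subunit, METTL14 holds the RNA beside it, and WTAP, VIRMA and RBM15 anchor and guide the complex. The erasers FTO and ALKBH5 are dioxygenases that can remove methyl groups from RNA, and the cytosolic YTHDF proteins read the mark and are best known for directing mRNA to decay. IGF2BP2, the protein deleted here, is itself described as a reader that stabilizes marked mRNA. The genes described are 10 of the 38887 in the files, chosen by name: the 5 writers Mettl3, Mettl14, Wtap, Virma and Rbm15, the 2 erasers Fto and Alkbh5, and the 3 readers Ythdf1, Ythdf2 and Ythdf3. All 10 passed the filter on low counts, as did 12846 genes in all.

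RNA-Seq was performed with bone marrow-derived macrophages (BMMs), which are mouse marrow cells matured in culture with M-CSF. The 4 groups of 3 libraries were WT and IGF2BP2 KO, each left untreated (M0) or given IL-4 at 20 ng/ml for 8 h (M2). KO mice carried a floxed Igf2bp2 allele and Cre recombinase in the Lyz2 locus, which is active in myeloid cells, whereas the WT littermates had no floxed allele and only some carried Cre. Totals were between 20011792 and 39632770 counts per library. The deleted gene was at a mean of 98.0 CPM in WT M0 and 90.8 CPM in KO M0, and at 211 CPM in WT M2 and 135 CPM in KO M2, so that in M0 the gene-level count did not separate the genotypes (CPM are counts relative to the scaled total of a library). The loxP sites flank only some exons, whereas this count covers the whole gene. In separate assays the paper found Igf2bp2 mRNA and protein nearly undetectable in KO BMMs. Whether the remaining exons make up the KO count was not tested. Lyz2 lay between 11.04 and 33.24 CPM in the KO libraries and between 4185 and 10540 CPM in the WT libraries. The genotypes thus differed in Lyz2 as well as in the floxed allele, and these parts cannot be told apart here. IL-4 raised Mrc1, a mannose receptor and M2 marker, by 3.27 on the log2 scale in WT and 3.96 in KO (edgeR adjusted p = 1.4e-10 and 3.8e-11). Macrophage markers were abundant, with summed levels of 4327 to 5625 CPM, while the T cell markers Cd3d, Cd3e and Cd3g were at 0 in all 12 libraries. Of 8 neutrophil markers, Ly6g was at 0 in all libraries, and S100a8, S100a9, Camp, Ngp and Ltf were above 0 in all of them, the highest value being 7.72 CPM for Ltf. A quantity set by the quantification for each library, gene length minus effective length, was 81.71 to 84.95 nt in WT M0, 79.79 to 83.99 nt in WT M2 and 79.03 to 79.89 nt in KO M0. It was lower in all KO libraries than in all WT libraries but 1, WT M2 replicate 3, and its part in the KO comparisons was not tested.

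Levels of the 10 genes spanned a wide range. TPM, which accounts for transcript length and so can be compared between genes, was highest for Wtap, at 121 ± 5.2 (mean ± SD over 12 libraries), followed by Ythdf2 at 65.7 ± 3.3. Both were above the next gene in 12 of 12 libraries. Ythdf3 followed at 43.9 ± 3.2 TPM, and the next 4 genes lay close together, with Fto at 36.6 ± 3.4, Ythdf1 at 36.6 ± 2.5, Mettl3 at 32.6 ± 4.2 and Alkbh5 at 29.6 ± 3.4 TPM. Fto was above Ythdf1 in only 6 libraries, so that the order of these neighbours was not resolved. Virma (21.8 ± 2.1 TPM) and Mettl14 (15.97 ± 1.9 TPM) were lower, and Rbm15 was lowest at 8.32 ± 1.2 TPM. Among the writers the scaffold Wtap was thus several times more abundant as mRNA than the catalytic pair.

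**Figure D1:**
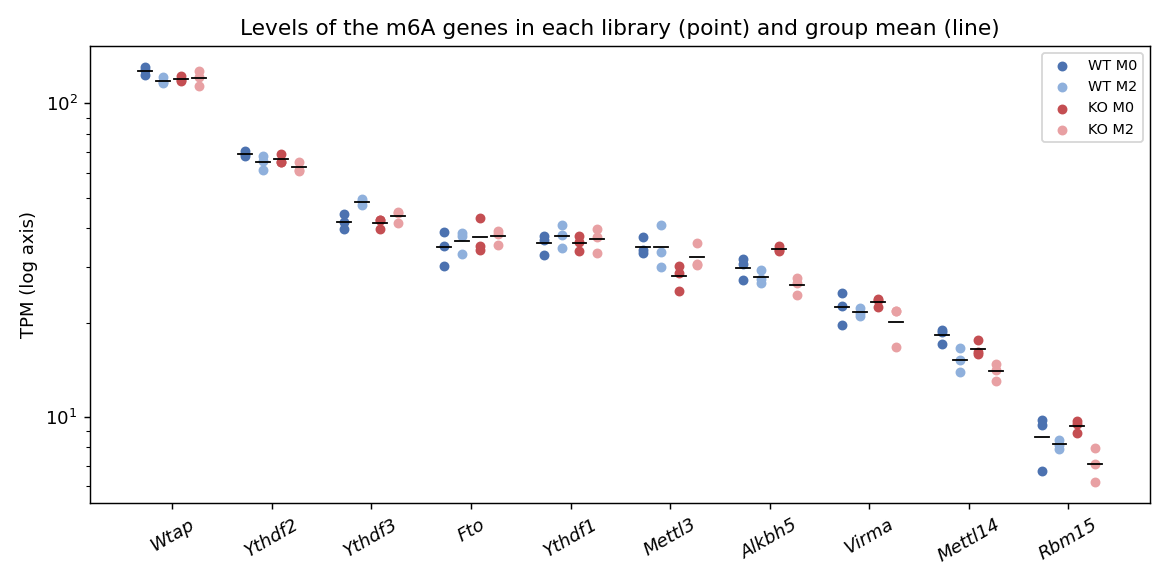
TPM of each gene on a log axis, with 1 point per library, colours for the 4 groups and a line at the group mean (n = 3). Wtap and Ythdf2 are separate from all other genes, whereas Fto, Ythdf1, Mettl3 and Alkbh5 overlap, and differences between groups are small beside differences between genes.

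IL-4 raised the reader Ythdf3 in both genotypes. In WT, Ythdf3 was at 121, 116 and 116 CPM in M0 and at 142, 145 and 138 CPM in M2, and the groups did not overlap. The log2 difference was 0.27 (SE 0.04, edgeR adjusted p = 0.000132). In KO it was at 118, 113 and 121 CPM in M0 and at 129, 131 and 131 CPM in M2, again without overlap, and the log2 difference was 0.15 (SE 0.04, edgeR adjusted p = 0.00685). The smaller rise in KO did not pass the test of the difference, which was -0.12 (95% interval -0.25 to 0.01, edgeR adjusted p = 0.316). On the TPM scale the rise in KO was 0.07 and was not called (limma adjusted p = 0.316).

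Among the other readers, Ythdf1 was at 60.6, 62.4 and 59.0 CPM in WT M0 and at 73.2, 68.4 and 62.0 CPM in WT M2, so that the lowest M2 library lay within the M0 range. It rose by 0.16 on the log2 scale (SE 0.06, edgeR adjusted p = 0.0309). That call was lost in 4 of 12 fits that left out 1 library: without WT M0 replicate 1 (adjusted p = 0.0608) or 3 (0.0872) and without WT M2 replicate 1 (0.152) or 2 (0.0799). It was also lost with no filter on low counts (edgeR adjusted p = 0.0796), in the fit of the 6 WT libraries (0.0963) and on log2(TPM + 1), where the rise was 0.08 (limma adjusted p = 0.493). In KO the change was 0.09 (edgeR adjusted p = 0.2). Ythdf2 hardly moved with IL-4, at -0.01 in WT (95% interval -0.10 to 0.07) and -0.01 in KO (95% interval -0.09 to 0.08).

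In the writer pair, IL-4 called Mettl14 lower in WT and Mettl3 higher in KO. Mettl14 was at 24.2, 25.7 and 24.1 CPM in WT M0 and at 21.1, 23.5 and 19.3 CPM in WT M2, all below M0, and fell by 0.21 on the log2 scale (SE 0.07, edgeR adjusted p = 0.0234). The fall lost its call without WT M0 replicate 2 (adjusted p = 0.0932), WT M2 replicate 1 (0.0640) or WT M2 replicate 3 (0.102), and in the fit of the 6 WT libraries alone (0.0657). In KO, where Mettl14 was at 21.5, 23.0 and 21.7 CPM in M0 and 19.2, 19.8 and 20.5 CPM in M2, the log2 difference was -0.15 (edgeR adjusted p = 0.0753). It was called on log2(TPM + 1) with limma, at -0.23 (adjusted p = 0.0396), after thinning, at -0.22 (edgeR adjusted p = 0.0249), in the fit of the 6 KO libraries (0.0379), and without WT M2 replicate 2 (0.0472) or 3 (0.0476). Mettl3, in contrast, was at 19.4, 20.7 and 21.0 CPM in KO M0 and at 27.0, 21.8 and 22.7 CPM in KO M2, a rise of 0.22 (SE 0.08, edgeR adjusted p = 0.0381) to which KO M2 replicate 1 contributed most. Without that library it was 0.13 (adjusted p = 0.160), and the call was also lost without KO M0 replicate 1 (0.133), 2 (0.0699) or 3 (0.0566) or WT M0 replicate 2 (0.0573). It was lost as well with no filter on low counts (edgeR adjusted p = 0.0625), after thinning (0.0971) and on log2(TPM + 1) with limma (0.164). In WT, the log2 difference of Mettl3 was 0.04 (95% interval -0.14 to 0.23). The difference between the responses was called for neither gene, at 0.06 for Mettl14 (95% interval -0.15 to 0.27, edgeR adjusted p = 0.806) and 0.18 for Mettl3 (95% interval -0.08 to 0.44, edgeR adjusted p = 0.463). The ratio of Mettl3 to Mettl14 TPM in KO was 1.71 ± 0.18 in M0 and 2.34 ± 0.37 in M2 (SD, n = 3), without overlap, for which the exact two-sided permutation test gave p = 0.1, the smallest p that 3 against 3 libraries allow. In WT the ratio was 1.92 ± 0.12 in M0 and 2.31 ± 0.45 in M2, with overlap (p = 0.3 in the same exact test).

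The eraser Alkbh5 and the writer subunit Rbm15 fell with IL-4 in KO. Alkbh5 was at 109, 108 and 107 CPM in KO M0 and at 84.7, 90.0 and 87.6 CPM in KO M2, so that the groups lay well apart. It fell by 0.30 on the log2 scale (SE 0.05, edgeR adjusted p = 0.000217), a call that held in all 12 fits without 1 library. In WT it was at 96.6, 95.2 and 87.8 CPM in M0 and at 95.7, 90.7 and 87.0 CPM in M2, which overlap, and the log2 difference was -0.03 (SE 0.05, edgeR adjusted p = 0.616). KO minus WT, the responses differed by -0.27 (95% interval -0.42 to -0.12) and missed the threshold (edgeR adjusted p = 0.0604). Among fits that did not pair libraries by number, the difference passed with DESeq2 (adjusted p = 0.0106) and without WT M0 replicate 1 (edgeR adjusted p = 0.0424). The fit that paired them is given with the processing. Fto, the other eraser, was at 53.2 to 61.9 CPM in WT M0 and 59.5 to 64.8 CPM in WT M2, and at 56.1 to 63.7 CPM in KO M0 and 62.6 to 63.5 CPM in KO M2. These ranges overlap, and the log2 differences were 0.10 in WT (95% interval -0.04 to 0.25) and 0.10 in KO (95% interval -0.04 to 0.24).

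Rbm15 was at 17.1, 16.9 and 15.9 CPM in KO M0 and at 12.1, 14.6 and 13.2 CPM in KO M2. It fell by 0.32 on the log2 scale (SE 0.10, edgeR adjusted p = 0.0187), but the call was lost without KO M0 replicate 1 (adjusted p = 0.0563) or 2 (0.0563) and without KO M2 replicate 1 (0.0719) or 3 (0.0544). In WT the values were 16.8, 16.4 and 12.4 CPM in M0 and 15.6, 14.7 and 15.0 CPM in M2, and M0 replicate 3 lay below all of M2. The difference between the responses was -0.31 (95% interval -0.63 to 0.01, edgeR adjusted p = 0.302). Over the 12 libraries the log2 CPM of Alkbh5 and Rbm15 had a Pearson correlation of 0.81, the highest of the 45 pairs of these genes. With the group means taken out it was 0.83. Both values of a point come from 1 library and share its depth.

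The remaining writer subunits varied little. Wtap, which localizes the catalytic pair to nuclear speckles, lay between 110 and 123 CPM in all 12 libraries. Its log2 difference with IL-4 was -0.05 in WT (95% interval -0.14 to 0.05) and 0.04 in KO (95% interval -0.05 to 0.13). Virma, the largest scaffold of the complex, lay between 61.7 and 78.7 CPM, with its lowest value in KO M2 replicate 1, and differed by -0.02 in WT and -0.12 in KO (edgeR adjusted p = 0.855 and 0.184). Over the 4 groups together, the F statistic was 20.7 for Ythdf3, 14.3 for Alkbh5 and 7.44 for Mettl14, and 1.21 for Wtap and 0.969 for Virma at the low end.

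The upstream sequence of Alkbh5 is shown because the calls between genotypes turn on this gene. It comprises the 250 bases before the RefSeq transcript start, at chr11:60537433-60537682 on the plus strand (GRCm38.p6). These bases lie inside the span of the GENCODE M21 gene (chr11:60536381-60558512). Capitals mark matches, on either strand, to the GC box (GGGCGG, in 32.7% of 32851 promoters) and the CCAAT box (CCAAT, 33.8%).
Alkbh5: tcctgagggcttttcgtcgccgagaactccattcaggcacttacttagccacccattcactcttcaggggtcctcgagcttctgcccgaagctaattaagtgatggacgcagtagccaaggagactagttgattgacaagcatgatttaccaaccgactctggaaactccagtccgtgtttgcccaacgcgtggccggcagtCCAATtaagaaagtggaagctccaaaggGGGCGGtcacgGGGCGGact
It held 2 GC boxes and 1 CCAAT box. Also searched were TTCNNNNGAA (5.85% of promoters), the spacing preferred by STAT6, the factor that IL-4 signalling activates, and TTCNNNGAA (7.02%), and neither set of letters was in this window. Among the genes with a RefSeq entry, 1 match to the first was in the Rbm15 window and 1 to the second in that of Fto. A match is a description of letters and not a site of binding. RefSeq entries were matched for 7 of the 10 genes, all but Mettl14, Virma and Ythdf3.

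Counted over all 10 genes, IL-4 called 3 in WT (2 higher, 1 lower) and 4 in KO (2 higher, 2 lower). Of all genes tested, 50.0% were called in WT (24.9% higher, 25.1% lower) and 52.8% in KO (26.8% higher, 26.0% lower). The M0 and M2 ranges did not overlap for 2 of the 10 in WT (55.2% of all genes) and for 7 in KO (63.4% of all genes). Summed neutrophil markers were at 9.27 to 24.1 CPM in WT M0 and 5.01 to 14.1 CPM in WT M2, where S100a9 and Ngp were called lower (edgeR adjusted p = 0.0485 and 0.0230), and at 5.84 to 6.17 CPM in KO M0 and 5.31 to 6.52 CPM in KO M2. Their part in the IL-4 results was not tested. The median size of the log2 change was 0.05 for the 10 genes against 0.26 for all genes in WT, and 0.14 against 0.27 in KO. None of the 10 was called for the difference between the responses with edgeR, against 3.24% of all genes. In that fit 1 of the 10 was at an unadjusted p under 0.05, for which the share of all genes was not counted. DESeq2 called 1 of the 10, against 6.42% of all genes.

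**Figure D2:**
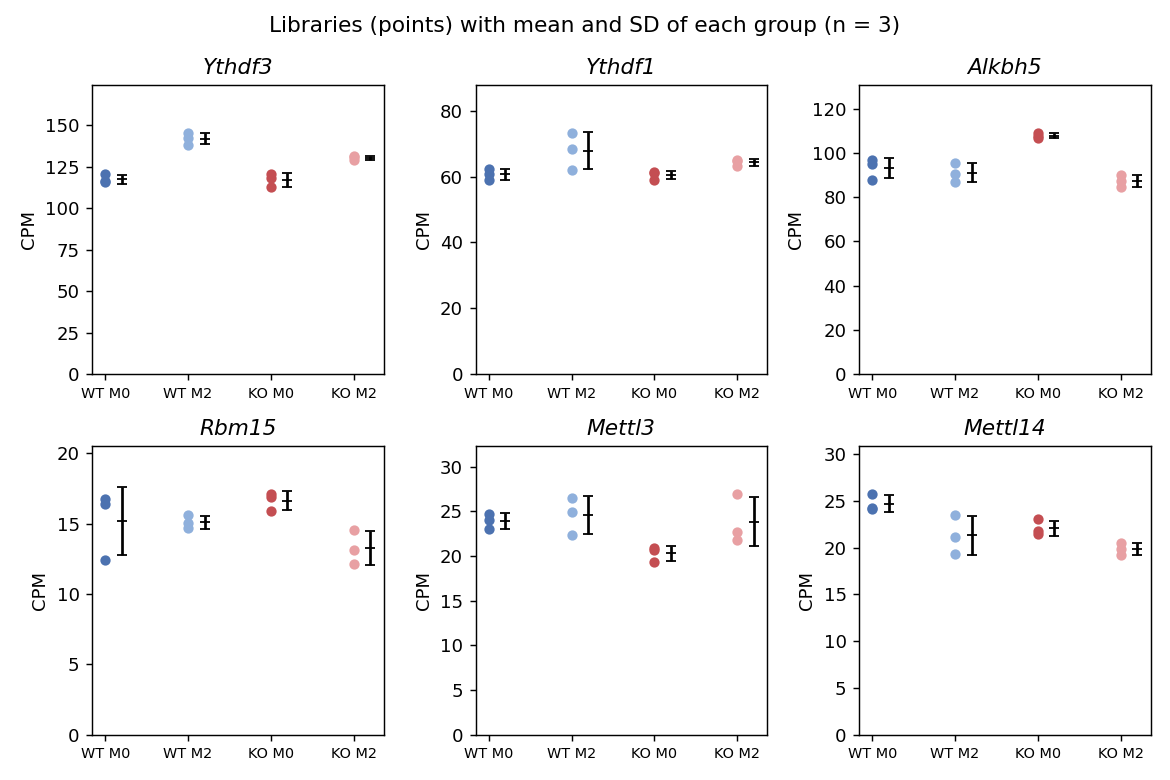
CPM of the 6 genes called in a comparison, with 1 point per library and the mean and SD of each group (n = 3) beside the points. Ythdf3 is higher in M2 in both genotypes, and Alkbh5 is highest in the 3 KO M0 libraries, at 107 to 109 CPM.

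Between KO and WT in M0, 1 of the 10 genes was called, a share near the 9.78% of all genes (5.50% higher, 4.27% lower). Alkbh5 was at 109, 108 and 107 CPM in KO against 96.6, 95.2 and 87.8 CPM in WT, without overlap, and rose by 0.21 on the log2 scale (SE 0.05, edgeR adjusted p = 0.0209). The call was lost without WT M0 replicate 2 (adjusted p = 0.0556), KO M0 replicate 1 (0.0673), 2 (0.0726) or 3 (0.0664), and on log2(TPM + 1) with limma (0.132), while the log2 fold change stayed between 0.17 and 0.24 in all alternatives. The same KO M0 libraries enter the IL-4 fall of Alkbh5 in KO and the difference between its responses, so these are not separate results. Mettl3 was at 19.4, 20.7 and 21.0 CPM in KO against 23.0, 24.0 and 24.8 CPM in WT, a log2 difference of -0.23 (SE 0.08, edgeR adjusted p = 0.103) that passed in the fit of the 6 M0 libraries alone (adjusted p = 0.0488) and without KO M2 replicate 1 (0.0440). Mettl14 (-0.16), Ythdf2 (-0.11) and Wtap (-0.08) also had KO ranges below WT and were not called, so that 5 of the 10 did not overlap, against 31.1% of all genes.

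Summed neutrophil markers were at 9.27 to 24.1 CPM in WT M0 and at 5.84 to 6.17 CPM in KO M0, and summed stromal markers at 26.9 to 48.2 CPM and 7.47 to 26.5 CPM. Of the neutrophil markers, S100a9, Ngp and Ltf were called lower in KO M0 (edgeR adjusted p = 0.0124, 0.0180 and 0.00759). The part of these cells in the differences was not tested. In bulk samples fewer cells of a type and less RNA per cell cannot be told apart.

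In M2, none of the 10 genes was called between genotypes by edgeR or DESeq2, against 2.68% of all genes called by edgeR and 5.58% by DESeq2. In edgeR, 2 of the 10 were at an unadjusted p under 0.05, for which the share of all genes was not counted. The genes at an unadjusted p under 0.05 were Ythdf3, at -0.12 (SE 0.04, edgeR adjusted p = 0.133), and Ythdf2, at -0.10 (SE 0.04, edgeR adjusted p = 0.182). Ythdf2 was at 91.4, 89.8 and 90.5 CPM in KO M2 and 95.7, 101 and 94.7 CPM in WT M2. Together with Rbm15, both had KO values below all WT values, 3 of the 10 genes against 24.8% of all genes. Alkbh5 differed by -0.06 in M2 (95% interval -0.17 to 0.05). Summed stromal markers were at 29.3 to 53.2 CPM in WT M2 and 8.45 to 23.4 CPM in KO M2, without overlap, and their part in these values was not tested.

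**Figure D3:**
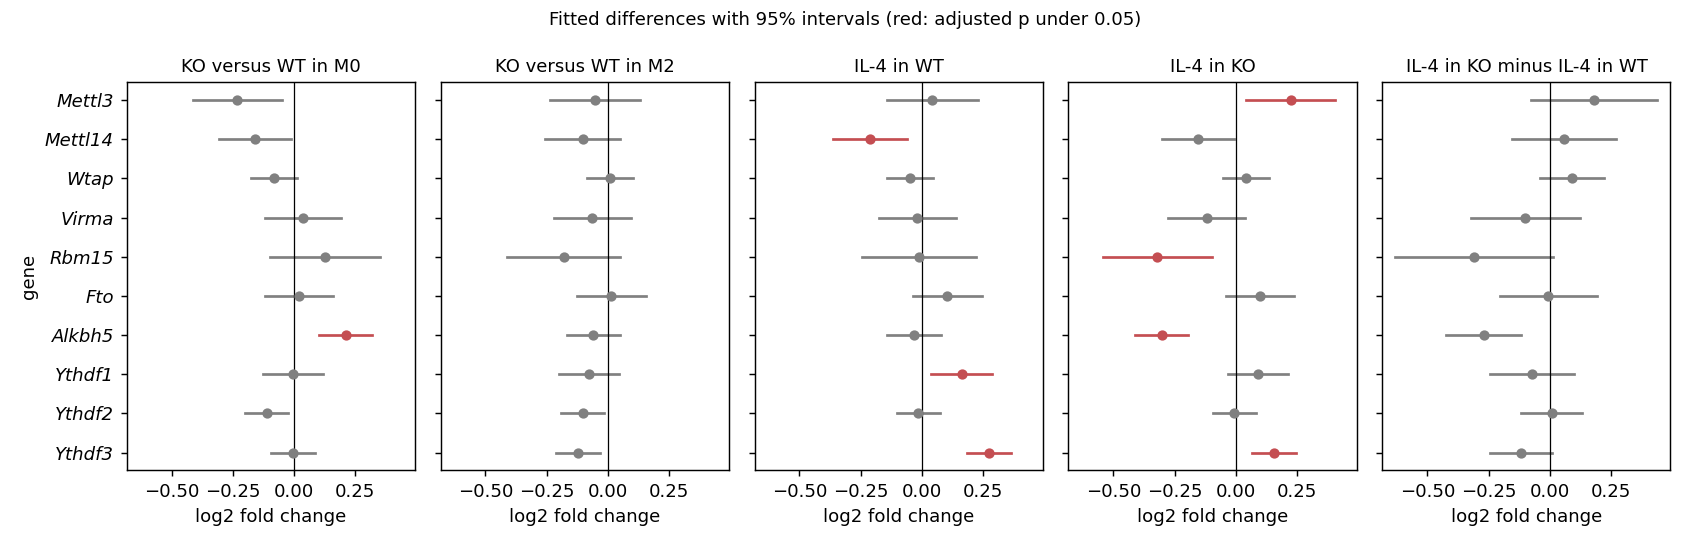
Fitted log2 fold changes (points) with 95% intervals (lines) of the 10 genes in 5 comparisons, in red where the edgeR adjusted p was under 0.05. Alkbh5 is called in KO against WT in M0 and for IL-4 in KO, Ythdf3 for IL-4 in both genotypes, and no gene in M2 or for the difference between the responses.

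Transcript usage was compared through the isoform-weighted length that the quantification gives per gene. Rbm15 has 1 transcript of 3270 nt in the files, and for Mettl3, with 15 transcripts, the length ran from 1209 to 1474 nt between libraries. None of the 9 genes whose length varied was called in any comparison by limma (lowest adjusted p = 0.581). Over 8597 genes the called shares were 0.0233% and 0.0116% for KO against WT in M0 and M2. IL-4 gave 0.0814% in WT and 0.0233% in KO, and the contrast of the responses 0.00%. Mettl3 overlaps Tox4 on the opposite strand, and whether counting used the strand is not given in the sources used here.

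The other genes of the pathway were taken as 50 genes by role, of which 49 were tested. IL-4 called 21 of them in WT (12 higher, 9 lower) and 21 in KO (13 higher, 8 lower), or 42.9% in each, below the 50.0% and 52.8% of all genes. Among readers, Igf2bp2 itself rose by 1.1 on the log2 scale in WT (edgeR adjusted p = 2e-05) and 0.57 in KO (0.00297), and Snd1 by 0.72 and 0.60. The helicase reader Ythdc2 fell by 0.43 in WT and by 0.60 in KO. Fmr1, an RNA-binding translational repressor, fell by 0.24 in WT and by 0.57 in KO, and the difference of -0.33 was called (edgeR adjusted p = 0.0349).

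Among enzymes, Mettl16, which methylates U6 RNA and the mRNA of the methyl donor synthetase, rose by 0.25 in WT and 0.30 in KO. In the methyl donor cycle Ahcyl2, a relative of the hydrolase that clears S-adenosylhomocysteine, rose by 0.78 and 0.77, and Adk, the adenosine kinase, fell by 0.72 and by 0.46. Subunits of CCR4-NOT, the deadenylase that YTHDF2 can recruit, were called lower for 4 of 11 in each genotype, where 25.1% of all genes were lower in WT and 26.0% in KO, and 1 was higher in WT. Its catalytic subunit Cnot6l fell by 0.21 in WT and by 0.51 in KO, with a difference of -0.30 (edgeR adjusted p = 0.0280). Fmr1 and Cnot6l were the 2 of 49 genes called for the difference between the responses, or 4.08% against 3.24% of all genes. Between genotypes, 2 of the 49 genes were called in M0, Snd1 (0.29) and Igf2bp3 (-2.16), which is 4.08% against 9.78% of all genes. In M2, 3 were called, Snd1 (0.17), Igf2bp3 (-2.01) and Igf2bp2 (-0.65), which is 6.12% against 2.68% of all genes. How many reads match both Igf2bp paralogs was not measured here.

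**Figure D4:**
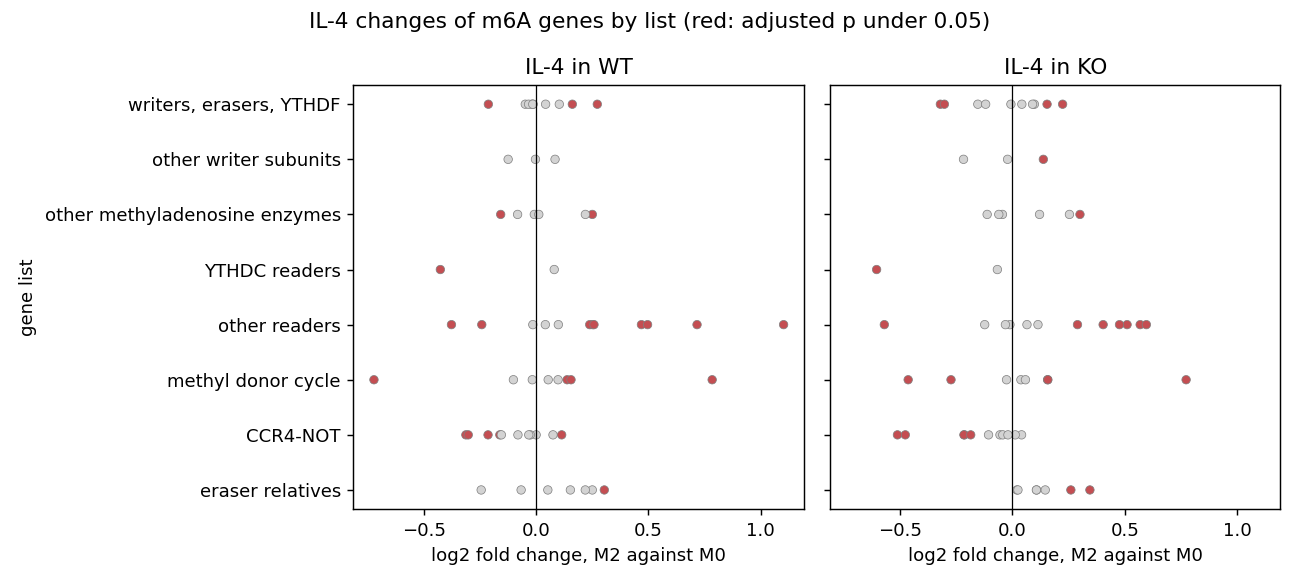
Log2 fold changes of M2 against M0 for each gene (point) by list, in WT and KO, in red where the edgeR adjusted p was under 0.05. The writers, erasers and YTHDF readers lie between -0.32 and 0.27, inside the range of the other readers and of the methyl donor cycle.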

How the data were processed

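For each of 12 libraries the authors deposited expected counts, which are estimated reads per gene, TPM in a maximum-likelihood and a posterior mean version, gene lengths and the posterior SD of the count. The SD was 0 to 1.32 reads for the 10 genes. The labels name GRCm38, FastQC 0.11.2 and DESeq2 1.40.2, and the study's methods name the Grape-nf pipeline run with Nextflow. The version of the counting tool inside that pipeline is not given in the sources used here. The authors' DESeq2 comparisons supplied gene symbols only. Positions are from GENCODE M21.

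Expected counts were rounded, filtered with filterByExpr and fitted over all 12 libraries with edgeR 4.0.16 (TMM, quasi-likelihood F test) in R 4.3.3, with Benjamini-Hochberg adjustment over 12846 genes and a call at an adjusted p under 0.05. Length was tested with limma 3.58.1 on log2 values. Scripts were tested on simulated counts. Groups came from the labels, and p-values measure the spread between 3 libraries per group. The 10 genes and the lists were chosen with earlier results of these data known. All 10 genes are named, and of the other listed genes only some of those called, while the rest enter the counts. Alternatives were DESeq2 1.42.0, RLE factors, other filters, limma on log2(TPM + 1) and log2(TPM + 0.1), thinning, a replicate block, the 6 libraries of a comparison and leaving out each library.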

Additional observations from a re-analysis of the deposited data

How the results depend on the processing

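Of 1040 fold changes of the 10 genes under the alternatives, 994 kept their side of the threshold, 34 lost a call, 12 gained one and 0 called values changed sign. Counting each gene in each comparison, the main fit called 8 results and did not call 42. Most of the 994 were therefore values that stayed uncalled, and the 34 losses all fell among the 8 calls. The number of genes called was 0 for KO against WT in M0 with limma on log2(TPM + 1) and on log2(TPM + 0.1), and 2 in the fit of the 6 libraries alone, which gave 1 for IL-4 in WT. Leaving out 1 library gave 0 to 2 genes for KO against WT in M0, 1 to 3 for IL-4 in WT, 2 to 5 for IL-4 in KO and 0 to 1 for the difference between the responses, and the cause was not tested. DESeq2 called 1 gene for that difference, where it called 6.42% of all genes against 3.24% with edgeR. No length was called in any alternative, and with posterior mean TPM 8 of 10 genes kept their place in the order of the levels, as Fto (36.0 TPM) and Ythdf1 (36.1 TPM) exchanged places. KO M2 replicate 1 held the highest CPM of Mettl3 and the lowest of Virma, Rbm15 and Alkbh5. Its median absolute deviation from the group mean over all genes (0.0893 in log2 CPM) was the highest in KO. In WT the highest was 0.0982, in M0 replicate 3.

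With the library number within a genotype as a replicate block, 1 gene (Alkbh5, edgeR adjusted p = 0.0203) was called for the difference between the responses, where this fit called 7.81% of all genes, and for IL-4 in KO Mettl3 lost its call (0.0507) and Mettl14 gained one (0.0405). The labels do not say that libraries of 1 number share a mouse. Deviations of M0 and M2 libraries of the same number correlated at 0.298, 0.0927 and 0.341 in WT and at 0.158, 0.146 and 0.191 in KO, computed on log2 CPM with a prior count of 1. Pairing required every value to be over 0.1, so the number was not taken to pair the libraries. With a prior count of 2, tried after the data and the block results were seen, the WT values were 0.331, 0.103 and 0.364, which would pass, so that the pairing and the call for Alkbh5 in that fit rest on this choice. Between genotypes the values ran from -0.0668 to 0.0349, and the block changed no call there.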

Other observations

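Of 9746 genes averaging 5 CPM or more, those whose log2 CPM followed Ythdf3 most closely over the 12 libraries were Cdk8, Ccdc88a and Kat14, with Pearson correlations of 0.984, 0.971 and 0.969. For Alkbh5 they were Notch4, Trim25 and Tsc22d1 (0.972, 0.970 and 0.966), and for Mettl14 Ywhag, Bmi1 and Ppt1 (0.934, 0.923 and 0.919). The points are the libraries of the 4 groups, and all genes of a library share its depth. Among relatives of the erasers, Alkbh1 rose with IL-4 by 0.30 in WT and 0.34 in KO on the log2 scale (edgeR adjusted p = 0.00201 and 0.000612).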
